A study of Mus musculus with 16 samples.

Results

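The 10 genes described here are Atf4, Asns, Psat1, Phgdh, Shmt2, Mthfd2, Slc7a11, Ddit3, Trib3 and Chac1, which encode the transcription factor ATF4 and 9 of its best known targets in amino acid stress. They were taken by symbol from a table of 24978 gene symbols, with the widest line used where a symbol had several, and all 10 passed a filter of a mean of at least 0.2 CPM (reads of a gene scaled to a total of 1000000 reads for each copy) over the libraries, which 14094 genes passed. Nascent RNA was measured by Bru-seq in 16 libraries of mouse embryonic stem cells: cells took up 2 mM bromouridine for 30 min, and the labelled RNA was captured with an antibody and sequenced. The series asks which DNA elements set the time and place of DNA replication, through edits made in the hybrid line F121-9. Each nucleus of this line holds 1 chromosome set from the 129 strain and 1 from Mus castaneus (cast), so most genes have a value for each copy.

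The libraries form 12 groups, called here by their labels. There were 2 libraries each of abc.del, ab.del and c.del. The groups 680kinv, 245kdel, 100kdel, 4k.b.c, bc.del, ac.del, b.del and a.del had 1 library each, with no replicate and no error. The parental line F121-9, the reference of every comparison between groups except that of abc.del with ab.del, had 2 libraries. All were mouse embryonic stem cells of the cas/129 hybrid, kept in medium with the inhibitor pair called 2i and with leukaemia inhibitory factor, per the labels' protocols. The labels do not give the sex or passage, the positions of the edits or the copy that was edited, and each name ends in its own code, so a library may be 1 clone. Whether libraries of a group came from separate cultures is not stated either, so the p-values describe spread between samples that may be technical. Between 8.96 M reads (M is 1000000; the 245kdel library) and 32.0 M reads (the ac.del library) fell on genes. Pluripotency genes were abundant in every library (7 markers summed to 1530 to 2130 CPM), while the summed levels of 5 primitive endoderm, 5 primed or germ layer and 5 fibroblast markers reached at most 2.71, 13.5 and 1.86 CPM. In bulk samples, fewer cells that transcribe a gene and less RNA per cell cannot be told apart. The libraries were deposited in 2 runs of sample numbers, called deposit blocks here, of 8 libraries each. Block 1 holds 680kinv, both abc.del libraries, ab.del replicate 1, bc.del, c.del replicate 1 and both F121-9 libraries, and block 2 holds the other libraries. The labels do not say what the runs stand for.

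ATF4 is the effector of the integrated stress response. When amino acids run short, uncharged tRNA activates the kinase GCN2, which phosphorylates the initiation factor eIF2alpha. General translation falls, Atf4 mRNA is translated more, and ATF4 pairs with C/EBP proteins on composite DNA elements in genes for amino acid synthesis and import, and for cell death if the stress persists. Mouse embryonic stem cells draw heavily on one-carbon and threonine metabolism. Since control of ATF4 is largely translational, the nascent RNA of Atf4 is not a measure of the protein.

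The promoters of Asns, Slc7a11, Trib3 and Chac1 are shown because the core of that composite element, TGATGNAA (N is any base), occurs in them. The sequences are from RefSeq on GRCm38.p6 (the assembly of mm10), run from 250 bases before the gene's start to 50 after it on the gene's own strand, and carry the matches on either strand in capitals.
Asns, chr6:7693160-7693459, minus strand: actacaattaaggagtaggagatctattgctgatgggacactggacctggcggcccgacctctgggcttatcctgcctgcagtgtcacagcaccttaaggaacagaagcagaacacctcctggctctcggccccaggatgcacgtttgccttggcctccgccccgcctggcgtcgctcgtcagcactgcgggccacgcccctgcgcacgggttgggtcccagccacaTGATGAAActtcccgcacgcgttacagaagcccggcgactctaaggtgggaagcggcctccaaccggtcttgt
Slc7a11, chr3:50443564-50443863, minus strand: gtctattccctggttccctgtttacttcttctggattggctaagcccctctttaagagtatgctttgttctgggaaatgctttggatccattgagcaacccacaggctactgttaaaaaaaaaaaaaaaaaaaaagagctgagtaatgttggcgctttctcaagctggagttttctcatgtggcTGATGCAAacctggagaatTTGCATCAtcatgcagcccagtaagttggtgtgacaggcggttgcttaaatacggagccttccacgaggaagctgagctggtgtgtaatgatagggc
Trib3, chr2:152344011-152344310, minus strand: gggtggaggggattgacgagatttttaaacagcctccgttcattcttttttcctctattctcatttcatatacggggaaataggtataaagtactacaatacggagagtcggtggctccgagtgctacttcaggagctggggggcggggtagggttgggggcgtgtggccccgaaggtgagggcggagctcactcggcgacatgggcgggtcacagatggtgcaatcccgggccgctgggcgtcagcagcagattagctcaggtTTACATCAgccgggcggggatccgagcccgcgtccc
Chac1, chr2:119350992-119351291, plus strand: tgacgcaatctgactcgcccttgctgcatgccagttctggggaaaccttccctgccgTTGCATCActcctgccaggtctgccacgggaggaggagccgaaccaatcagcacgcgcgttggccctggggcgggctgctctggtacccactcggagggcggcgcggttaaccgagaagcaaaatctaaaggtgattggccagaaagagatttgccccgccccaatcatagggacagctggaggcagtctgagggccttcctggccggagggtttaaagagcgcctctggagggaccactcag
The match in Asns begins 23 bases before the start. Slc7a11 held 2 matches that do not overlap, 1 on each strand, beginning 66 and 47 bases before the start. The match in Trib3 begins 14 bases after the start and that in Chac1 193 bases before it, both on the opposite strand. All 10 genes matched the promoter table, and 4 of them held the 8 letters, while the other 6 did not in these windows. Of 32851 promoters of the same length in the table, 3.97% held at least 1 match and 0.07% held 2 or more. A match is a run of letters and not a measured binding site.

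Atf4 (15:80255184-80257545, plus strand of mm10) had a level of 3.19 ± 1.52 CPM as the mean of both copies (SD, n = 16). CPM here is not divided by length. It counts the reads assigned to a copy by single-base differences between the strains (SNPs). Levels and percentiles compared between genes, here and below, thus also depend on the number of SNPs in a gene, which was not measured. Per kilobase of gene span, Atf4 stood at 1.35 CPM, at percentile 78.1 of the genes tested. It gave 3.18 and 1.78 CPM in abc.del, 2.27 and 4.89 CPM in ab.del, 0.883 and 4.99 CPM in c.del, and 2.54 and 2.88 CPM in F121-9. Each of the 3 deletion groups overlapped the parental range or enclosed it, and the c.del libraries lay 5.65-fold apart. With 2 libraries a group, separation was common among all genes tested: both libraries were above both of F121-9 for 29% of genes in abc.del, 22.7% in ab.del and 22.5% in c.del, and below both for 24.9%, 18.3% and 16.5%. Of the 10 genes, 1, 2 and 1 were above and 1, 0 and 4 below in abc.del, ab.del and c.del, and each is named with its values. Among single libraries the level was 2.36 CPM in 680kinv, 2.44 in 245kdel, 2.09 in 100kdel, 5 in 4k.b.c, 5.54 in bc.del, 2.09 in ac.del, 2.29 in b.del and 5.75 in a.del. The values of 4k.b.c, bc.del, a.del, ab.del replicate 2 and c.del replicate 2 lay between 4.89 and 5.75 CPM, and those of the other 11 libraries at 3.18 CPM or below. Counts behind the values ran from 41 reads in c.del replicate 1 to 222 in a.del.

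Asns (6:7675165-7693209, minus strand) encodes asparagine synthetase and was the highest of the 10, per kilobase as well, at 10.9 CPM per kilobase, at percentile 98.9. Its level was 197 ± 46.9 CPM (SD, n = 16). It gave 201 and 123 CPM in abc.del, 172 and 215 CPM in ab.del, 145 and 278 CPM in c.del, and 171 and 199 CPM in F121-9. Again every deletion group overlapped the parental line. Single libraries gave 181 CPM in 680kinv, 189 in 245kdel, 218 in 100kdel, 298 in 4k.b.c, 189 in bc.del, 250 in ac.del, 147 in b.del and 177 in a.del. The whole range over 16 libraries was 2.43-fold, the narrowest of the 10 genes.

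The serine branch was made up of Phgdh (3:98313171-98339969, minus strand), which encodes the first enzyme of serine synthesis, and Psat1 (19:15905123-15925059, minus strand), which encodes the aminotransferase of the next step. Psat1 gave 182 and 112 CPM in abc.del, 162 and 98.6 CPM in ab.del, 91.3 and 93.9 CPM in c.del, and 104 and 176 CPM in F121-9. Both c.del values were below both parental values, and the other groups overlapped the parental line. Single libraries gave 146 CPM in 680kinv, 63.2 in 245kdel, 65.0 in 100kdel, 97.9 in ac.del, 78.7 in b.del and 71.4 in a.del, and 4k.b.c and bc.del lay between abc.del replicate 2 and 680kinv. Phgdh gave 49.1 and 30.6 CPM in abc.del, 52.3 and 20.1 CPM in ab.del, 56.2 and 31.4 CPM in c.del, and 26.6 and 65.1 CPM in F121-9. Here the parental replicates were farther apart than those of abc.del and c.del. Single libraries gave 56.6 CPM in 680kinv, 23.4 in 245kdel, 26.2 in 100kdel, 37.8 in 4k.b.c, 17.6 in bc.del, 33.9 in ac.del, 17.6 in b.del and 22.2 in a.del. The Phgdh values of c.del replicate 1 (27.6 CPM from 129, 84.8 from cast) and ac.del (17.3 and 50.6) include an excess of cast along chromosome 3, described below. The 2.44-fold gap between the F121-9 libraries was matched or passed by 0.362% of 3319 genes of like level (within 2-fold), and the 1.69-fold gap of Psat1 by 1.52% of 2045 such genes. Both genes were higher in F121-9 replicate 2, and so were all the other genes described here. Their log2 gaps ran from 0.17 for Atf4 to 3.15 for Chac1, which had no reads in replicate 1.

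The mitochondrial one-carbon enzymes are Shmt2 (10:127517123-127522444, minus strand), the serine hydroxymethyltransferase, and Mthfd2 (6:83305704-83317604, minus strand), a methylenetetrahydrofolate dehydrogenase and cyclohydrolase. Mthfd2 gave 30.8 and 14.7 CPM in abc.del, 29.3 and 9.03 CPM in ab.del, 16.1 and 11 CPM in c.del, and 18.0 and 31.0 CPM in F121-9. The 2 c.del values lay below both parental values. Single libraries gave 30.6 CPM in 680kinv, 12.6 in 245kdel, 10.6 in 100kdel, 25.0 in 4k.b.c, 17.8 in bc.del, 11.9 in ac.del, 4.96 in b.del and 10.6 in a.del. The libraries fell into 5 between 25.0 and 31.0 CPM and 11 at 18.0 CPM or below. Shmt2 was 4.88 ± 1.64 CPM (SD, n = 16), with 7.10 and 4.77 CPM in abc.del, 5.79 and 5.11 CPM in ab.del, 2.85 and 6.4 CPM in c.del, and 3.31 and 3.95 CPM in F121-9. All 4 libraries of abc.del and ab.del were above both parental libraries, a difference that the test below did not call. In the single libraries Shmt2 ran from 2.32 CPM in b.del to 8.35 CPM in 4k.b.c.

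Slc7a11 (3:50364936-50443613, minus strand), the cystine importer, and Chac1 (2:119351242-119354327, plus strand), an enzyme that breaks glutathione down, stand on the sulfur side of the response. Slc7a11 gave 1.71 and 2.14 CPM in abc.del, 2.58 and 6.92 CPM in ab.del, 1.05 and 1.91 CPM in c.del, and 2.60 and 5.01 CPM in F121-9. The libraries of abc.del and c.del were all below the parental ones. Single libraries gave 3.18 CPM in 680kinv, 1.89 in 245kdel, 1.32 in 100kdel, 10.3 in 4k.b.c, 7.53 in bc.del, 2.19 in ac.del, 4.6 in b.del and 4.80 in a.del. Over all 16 libraries the highest value, in 4k.b.c, was 9.77 times the lowest, in c.del replicate 1. With a span of 78.7 kb it had the lowest level of the 10 per kilobase, 0.0475 CPM. Chac1 was at the edge of detection, with 233 reads in all libraries together. It had 38 and 0 reads in abc.del, 36 and 7 in ab.del, 19 and 8 in c.del, and 0 and 24 in F121-9. In the single libraries it had 47 reads in 680kinv, 3 in 245kdel, 5 in 100kdel, 20 in 4k.b.c, 4 in bc.del, 10 in ac.del, 0 in b.del and 12 in a.del. Libraries of 1 group thus stood at 0 and well above it: abc.del replicate 1 had 0.957 CPM and F121-9 replicate 2 had 0.789 CPM, while 0 reads in the other library of each group allow up to 0.183 CPM on a copy in abc.del and 0.129 CPM in F121-9, from a floor of 3 reads.

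Ddit3 (10:127290793-127296288, plus strand) encodes CHOP, a transcription factor of prolonged stress, and Trib3 (2:152337425-152344060, minus strand) a pseudokinase that holds ATF4 back. Trib3 gave 6.23 and 4.44 CPM in abc.del, 3.54 and 7.84 CPM in ab.del, 1.18 and 2.45 CPM in c.del, and 3.38 and 5.43 CPM in F121-9. Both c.del libraries were below both parental libraries, and the other groups overlapped them. Single libraries gave 3.59 CPM in 680kinv, 2.88 in 245kdel, 1.86 in 100kdel, 10.9 in 4k.b.c, 3.59 in bc.del, 4.35 in ac.del, 6.75 in b.del and 6.76 in a.del. Ddit3 gave 4.35 and 1.82 CPM in abc.del, 3.13 and 2.12 CPM in ab.del, 3.06 and 5.18 CPM in c.del, and 1.61 and 1.99 CPM in F121-9. All values of ab.del and c.del were above both parental values. Single libraries gave 1.58 CPM in 680kinv, 4.6 in 245kdel, 2.59 in 100kdel, 5.87 in 4k.b.c, 1.57 in bc.del, 4.37 in ac.del, 2.94 in b.del and 3.67 in a.del. The ends of Ddit3 and Mars, on opposite strands, overlap in the annotation. The libraries keep strand.

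**Figure D1:**
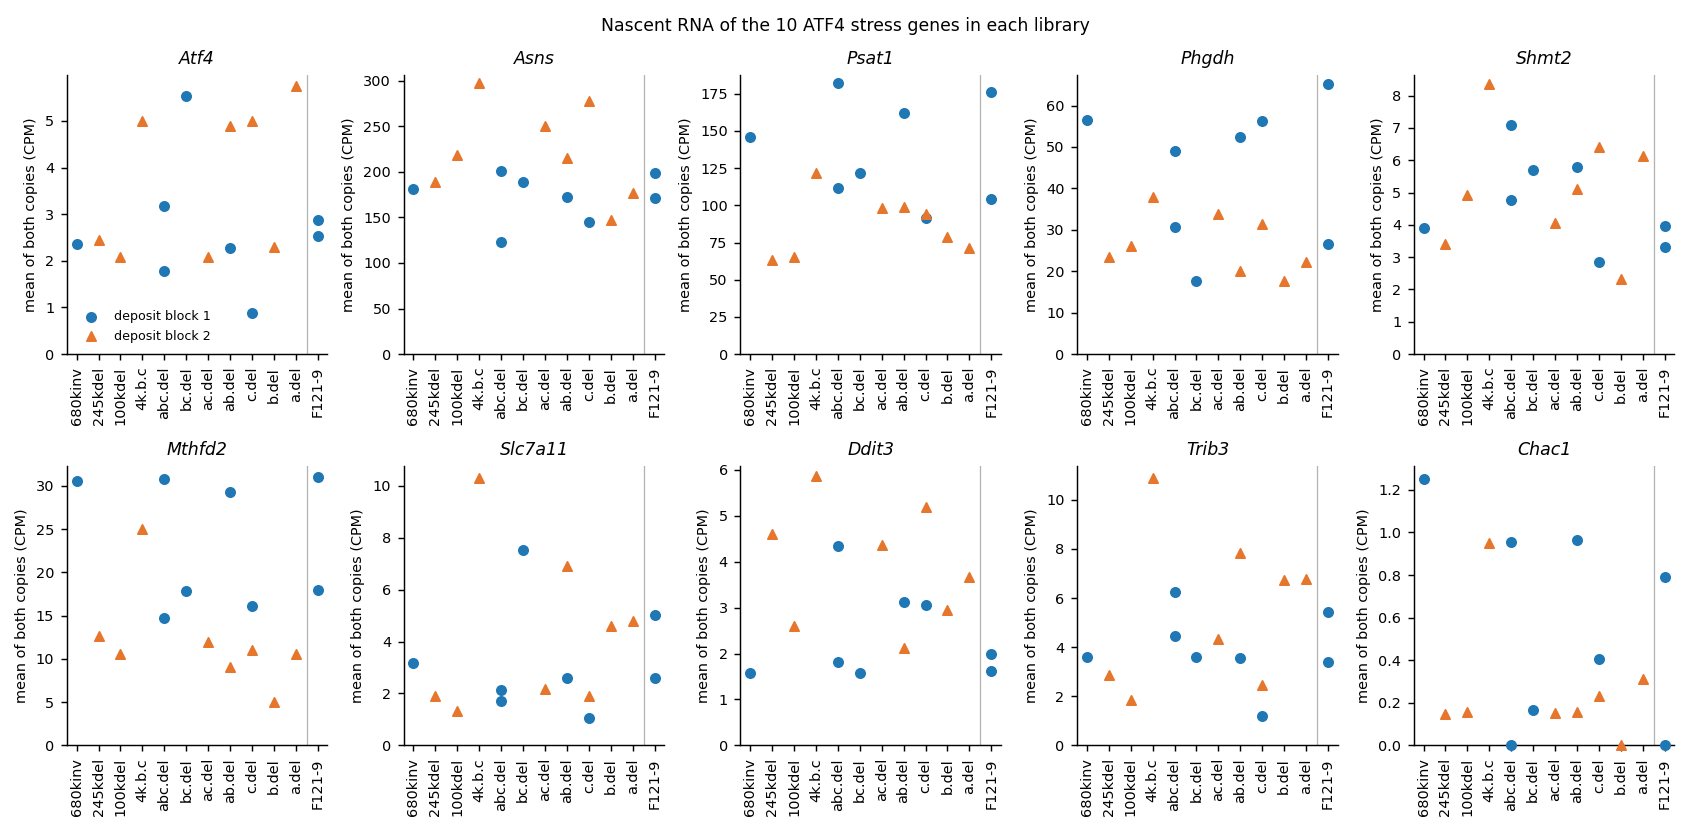
Mean CPM of the 129 and cast copies (vertical axis, from 0) of each gene in each library, with 1 point per library, groups along the horizontal axis and F121-9 on the right of the grey line. Circles are deposit block 1 and triangles deposit block 2; 4k.b.c is the highest library for Asns, Shmt2, Slc7a11, Ddit3 and Trib3, and Chac1 is at 0 in abc.del replicate 2, b.del and F121-9 replicate 1.

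The first comparisons asked whether deletion of the lettered sites changed these genes. None of the 10 passed an adjusted p of 0.05 when abc.del, ab.del or c.del was set against F121-9, or in abc.del against ab.del. The test was limma on log2(CPM + 0.1) with Benjamini-Hochberg adjustment over 14094 genes, two-sided, fitted on the 8 libraries of these groups. In the same fits 31 genes (0.22%) passed in abc.del, 7 (0.0497%) in ab.del, 7 (0.0497%) in c.del and 0 (0%) in abc.del against ab.del, where 132 genes had an unadjusted p under 0.05. At such shares a count of 0 of 10 is close to the background. edgeR on the recovered reads called 18 (0.128%), 11 (0.078%), 8 (0.0568%) and 0 (0%) genes in the same order, and DESeq2 called 358 (2.54%), 187 (1.33%), 222 (1.58%) and 0 (0%), none of them among the 10. On the 129 copy alone limma called 35 genes (0.25%) in abc.del, 30 (0.215%) in ab.del and 0 (0%) in c.del, and on the cast copy 0 (0%) in each, again with 0 of the 10 genes. The numbers of genes with an unadjusted p under 0.05 were 1065 for c.del on the 129 copy and, on the cast copy, 1079 for abc.del, 779 for ab.del and 1061 for c.del. The 3 comparisons with F121-9 share its 2 libraries.

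At an unadjusted p under 0.05, limma had 1 of the 10 genes in c.del against F121-9, beside 9.44% of all genes, and 0 of 10 in abc.del (10.3% of all genes), in ab.del (7.8%) and in abc.del against ab.del (0.937%). That gene was Trib3, with a log2 fold change of -1.28 (SE 0.54, 95% interval -2.50 to -0.06, adjusted p = 0.514 in limma). Slc7a11 had -1.29 (SE 0.60, interval -2.64 to 0.06, adjusted p = 0.547) and Ddit3 1.11 (SE 0.54, interval -0.11 to 2.33, adjusted p = 0.556) in the same comparison. Psat1, whose c.del libraries were both below the parental line, had -0.55 (SE 0.34, interval -1.31 to 0.21, adjusted p = 0.632 in limma). With edgeR and DESeq2 the same 2 genes, Slc7a11 and Trib3, had an unadjusted p under 0.05 in c.del, with adjusted p from 0.13 to 0.44. Of all 14094 genes, 1350 had such a p with edgeR and 1551 with DESeq2. In abc.del against ab.del, 1 of the 10 genes had it with each tool, beside 170 and 236 of all genes. In c.del, limma had 3 of the 10 with the deposit block as a covariate and 0 with a pseudocount of 1, beside 2258 and 1350 of all genes. In abc.del, Shmt2 had a log2 fold change of 0.67 (SE 0.46, interval -0.36 to 1.71, adjusted p = 0.657 in limma) and Slc7a11 -0.88 (SE 0.60, interval -2.23 to 0.47, adjusted p = 0.654 in limma). The median log2 fold change of the 10 genes was -0.01 in abc.del, 0.26 in ab.del and -0.16 in c.del, beside 0.04, 0.08 and 0.09 over all genes tested. The sign of these medians rested on single libraries. With 1 library left out, the median ran from -0.51 (without abc.del replicate 1) to 0.50 (without F121-9 replicate 2) in abc.del, and without F121-9 replicate 1 or replicate 2 it was -0.14 or 0.50 in ab.del and -0.78 or 0.03 in c.del. Intervals were narrowest for Asns, from -0.97 to 0.51 in abc.del, and widest for Chac1, from -2.84 to 3.09. They describe the uncertainty of each estimate with 2 libraries a group and are not a limit of detection. The spread behind these intervals and p-values is 1 estimate per gene shared by the 8 libraries fitted. It thus includes ab.del and c.del replicates from different deposit blocks, also where abc.del and F121-9, both wholly in block 1, are compared. Trib3 in c.del, whose interval left out 0, did not pass after adjustment either.

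**Figure D2:**
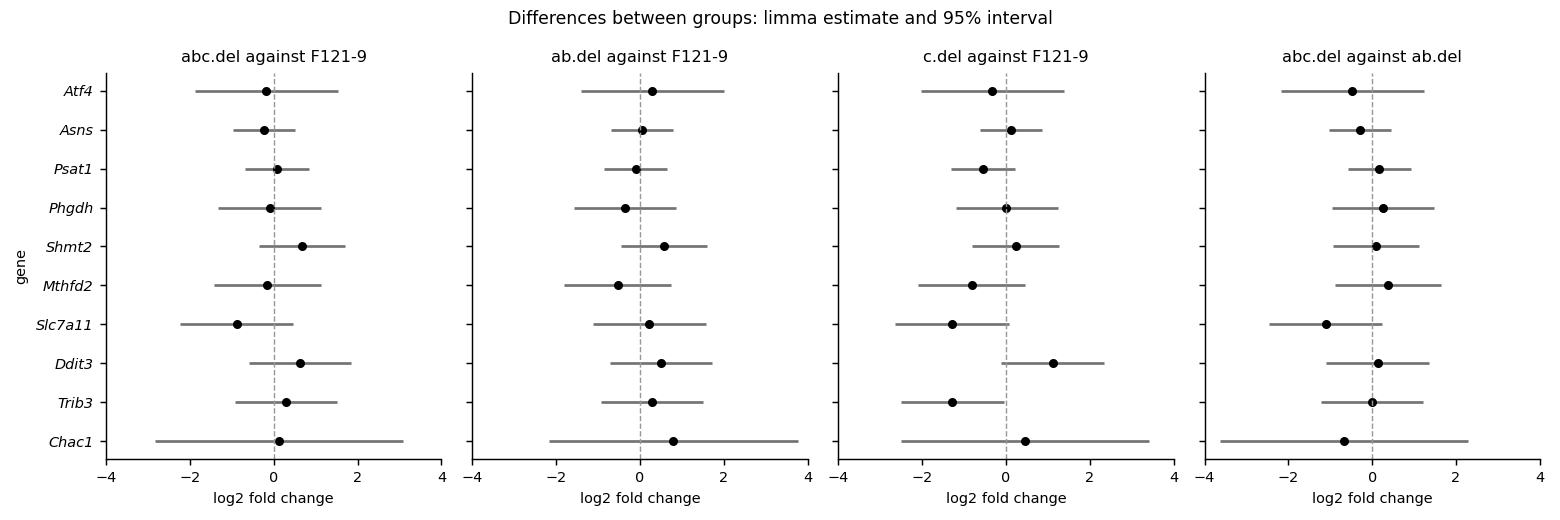
Log2 fold change (horizontal axis) of each gene (vertical axis) in the 4 comparisons of groups with 2 libraries, as limma estimates (points) with 95% intervals (bars). Among the intervals shown, that of Trib3 in c.del against F121-9 is the one that leaves out 0.

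The lettered groups together tested each site over 12 libraries, with additive terms for sites a, b and c, 6 libraries with and 6 without each letter in the label. limma called 0 of the 10 genes for any site, and 2 (0.0142%), 0 (0%) and 0 (0%) of all genes for sites a, b and c. Unadjusted p under 0.05 were found in 1246, 717 and 459 genes. The site c term was the one with members at such a p, 1 of 10 beside 3.26% of all genes. Slc7a11 averaged 2.76 CPM in libraries with c in the label and 4.42 CPM in those without, a fitted log2 difference of -0.86 (SE 0.40, interval -1.72 to -0.01, adjusted p = 1 in limma). Within deposit blocks the difference of the mean log2(CPM + 0.1), with c minus without, was -0.45 in block 1, where the mean levels were 3.11 and 3.40 CPM, and -1.35 in block 2, where they were 2.05 and 5.44 CPM. Trib3 averaged 3.71 CPM with c and 5.62 CPM without it (fitted log2 difference -0.68, SE 0.32, interval -1.38 to 0.02, adjusted p = 1 in limma), with -0.27 in block 1 (3.86 CPM with c and 4.12 CPM without) and -1.10 in block 2 (3.40 and 7.12 CPM). Block 2 had 2 libraries with c and 3 without. With the deposit block as a covariate in limma, 0 of the 10 genes had an unadjusted p under 0.05 for site c, where Slc7a11 had -0.79 (adjusted p = 0.748), and 1 had for site b, Phgdh, at -0.65 (adjusted p = 0.529). Of all 14094 genes tested, 958 had such a p for site c and 1242 for site b with this covariate. For site c, a pseudocount of 1, no filter on low values and a minimum mean of 1 CPM gave 0 too, beside 461, 701 and 367 of all genes. edgeR and a pseudocount of 0.01 gave 1, beside 421 and 436 genes. Quantile normalization and chromosome-median centring gave 2, beside 521 and 456 genes.

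The wider pathway gave the same count. Of 72 other genes in 7 lists (eIF2alpha kinases and phosphatase subunits, partner transcription factors, further serine, one-carbon and proline enzymes, amino acid transporters, cytosolic aminoacyl-tRNA synthetases, other stress targets of ATF4, and endoplasmic reticulum chaperones), 69 were tested. In limma 0 of the 69 passed in any of the 3 comparisons with F121-9 or in abc.del against ab.del, and 5, 1, 3 and 1 of them had an unadjusted p under 0.05, beside the shares of all genes given above of 10.3%, 7.8%, 9.44% and 0.937%. In c.del against F121-9 the genes with the smallest p of these were Jdp2, a bZIP factor (log2 fold change -1.95, SE 0.63, adjusted p = 0.4 in limma), Kars, the lysyl-tRNA synthetase (0.57, SE 0.20, adjusted p = 0.451), and Slc38a2, a neutral amino acid transporter (0.53, SE 0.22, adjusted p = 0.506). These 3 were chosen after their values were seen.

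The single library 4k.b.c stood out for the 10 genes and was picked out after the values were seen. It was the highest of the 16 libraries for 5 of them, Asns, Shmt2, Slc7a11, Ddit3 and Trib3, while 11.1% of all genes tested were highest there. Its summed level of the 10 genes was 523 CPM, against 333 and 491 CPM in the F121-9 libraries and 486 CPM in abc.del replicate 1. All 10 genes were above their median over the 16 libraries in 4k.b.c. The same held for 9 of them in abc.del replicate 1 and 8 in F121-9 replicate 2. Of the 10 genes, 7 were above both parental libraries in 4k.b.c and 0 below both, beside 49.6% and 33.2% of all genes tested. The median log2 difference from the mean of the F121-9 libraries was 1.02 for the 10 genes and 0.17 for all genes tested, with the lowest value at -0.16 for Psat1. The library had 9.86 M reads, fewer than all but 2 others. With 1 library there is no replicate check. At the other end, c.del replicate 1 was the lowest library for 3 of the 10 genes, Atf4, Slc7a11 and Trib3, beside 10.1% of all genes tested. The 2 deletion libraries 245kdel and 100kdel each had 6 of the 10 genes below both parental libraries, beside 23.3% and 22.9% of all genes, and 1 and 3 of 10 above both, beside 54.4% and 53.6%. In b.del 6 of 10 were below both, beside 41.1%, and 2 above both, beside 41.2%.

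The deposit blocks differed for part of the group. Mthfd2 ran from 4.96 to 25.0 CPM with a median of 10.8 CPM in block 2, and from 14.7 to 31.0 CPM with a median of 23.6 CPM in block 1. Phgdh had a median of 24.8 CPM in block 2 and 50.7 CPM in block 1, and Psat1 86.3 CPM in block 2 and 134 CPM in block 1. The log2 difference of block 2 from block 1 was -1.03 for Mthfd2, -0.66 for Phgdh and -0.66 for Psat1, where the median of all genes tested was 0.20 and 1.05%, 3.7% and 3.73% of genes were as low or lower. For Chac1 it was -0.62, with 4.44% of genes as low. The difference was 0.71 for Ddit3, 0.48 for Atf4, 0.37 for Trib3, 0.34 for Asns, 0.29 for Slc7a11 and 0.09 for Shmt2, and 18.9% of all genes were as high as Ddit3 and 39.5% as high as Asns. F121-9 and abc.del lie wholly in block 1, so a block difference cannot be told apart from groups that lie in 1 block. The ab.del and c.del replicates fall in different blocks: Mthfd2 was 3.22-fold lower in the block 2 replicate of ab.del and 1.46-fold lower in that of c.del.

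The levels of some pairs moved together across libraries. Over 16 libraries, Psat1 and Mthfd2 correlated with Pearson r = 0.82 (permutation p = 5.00e-05) and Spearman rho = 0.83 (permutation p = 7.00e-05) on log2(CPM + 0.1). Adjusted over the 14093 other genes the p of r was 0.0414 from the side of Psat1 and 0.0252 from that of Mthfd2, while those of rho were 0.0705 and 0.0364. Of all genes, 0.184% passed with Psat1 and 0.724% with Mthfd2. Without the 2 libraries farthest from the median of Psat1, r was 0.75. It was 0.91 within block 1 and 0.43 within block 2 (8 libraries each), and 0.77 over the means of the 12 groups. With block means removed, r was 0.64 and the adjusted p 0.535 and 0.422, so the pair did not pass within blocks. Phgdh and Mthfd2 had r = 0.78 and rho = 0.74 (permutation p = 0.00044 and 0.00184). The adjusted p of r was 0.0332 from the side of Phgdh, with which 2.41% of all genes passed, and 0.0512 from that of Mthfd2, while those of rho were 0.089 and 0.0552. This pair had r = 0.64 in block 1 and 0.82 in block 2, and 0.69 without the 2 libraries farthest from the median. Its Phgdh values include the cast excess of chromosome 3 in c.del replicate 1 and ac.del. Of the 45 pairs among the 10 genes, the pair of Psat1 and Mthfd2 passed from both sides, and the median r of the 45 was 0.25.

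**Figure D3:**
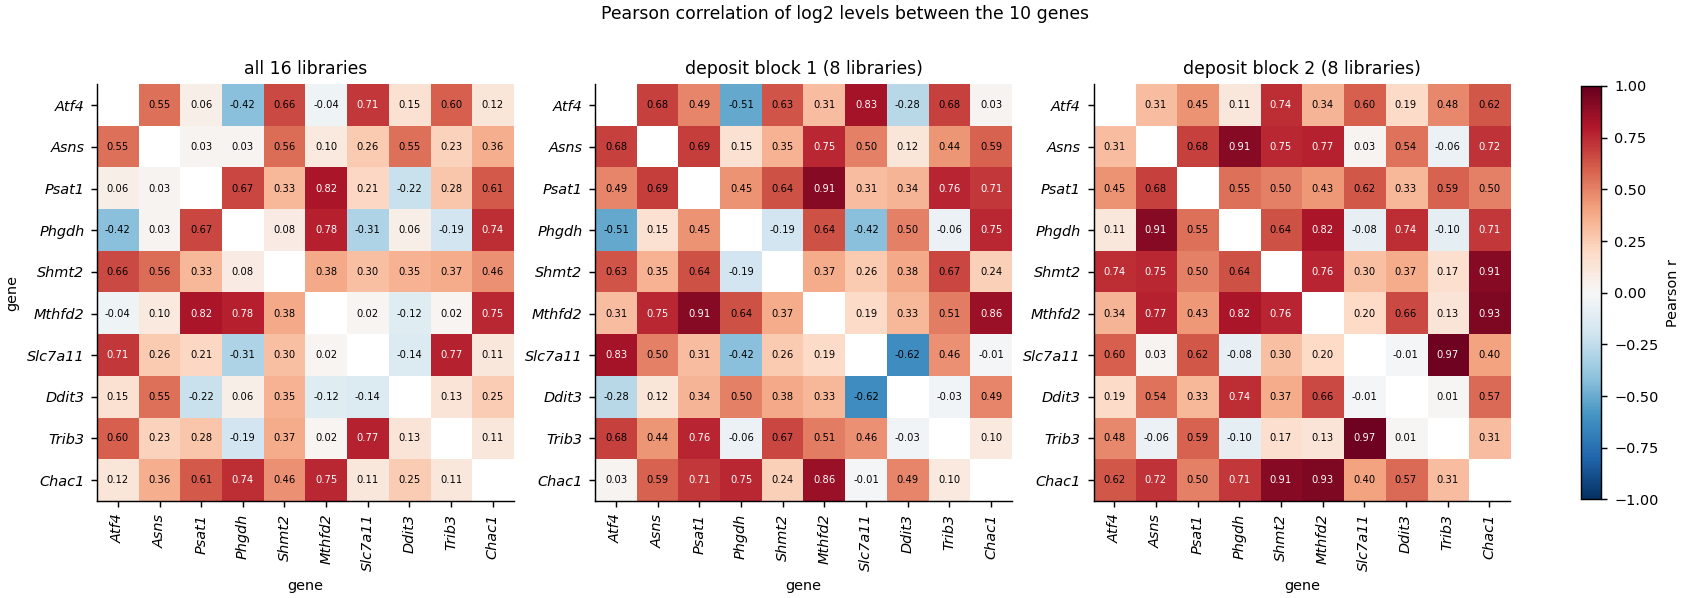
Pearson r of log2(CPM + 0.1) for every pair of the 10 genes (both axes), over all 16 libraries and within each deposit block of 8, from blue (-1) to red (1). Psat1 and Mthfd2 reach 0.82 over all libraries, and Asns and Mthfd2 reach 0.10 over all libraries but 0.75 and 0.77 within the blocks.

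Other pairs below are given as values, none of which passed after adjustment. Slc7a11 and Trib3 had r = 0.77 over all libraries, 0.46 in block 1 and 0.97 in block 2, and Atf4 and Slc7a11 had 0.71, 0.83 and 0.60. Mthfd2 and Chac1 had 0.75, 0.86 and 0.93: the 5 libraries highest for Chac1 (680kinv, 4k.b.c, abc.del replicate 1, ab.del replicate 1 and F121-9 replicate 2) were the 5 highest for Mthfd2. Each of abc.del, ab.del and F121-9 thus had 1 library with high Mthfd2 and Chac1 and 1 with low values. Asns differed between the pooled value and the blocks: its r with Psat1 was 0.03 over all libraries but 0.69 and 0.68 within the blocks, and with Mthfd2 0.10 but 0.75 and 0.77. With block means removed the median r of the 45 pairs was 0.47 and 0 pairs passed. The libraries share culture line, depth differences and the scaling to CPM, and libraries of 1 group are not independent. Among all genes, those most correlated with Atf4 were Pop7 (r = 0.86), Pde4c (0.86) and Gm14325 (0.83), each with an adjusted permutation p of 0.0953. Those most correlated with Asns were Acsbg2 (0.87), E330020D12Rik (0.86) and Scarf1 (0.86), each with an adjusted permutation p of 0.102.

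**Figure D4:**
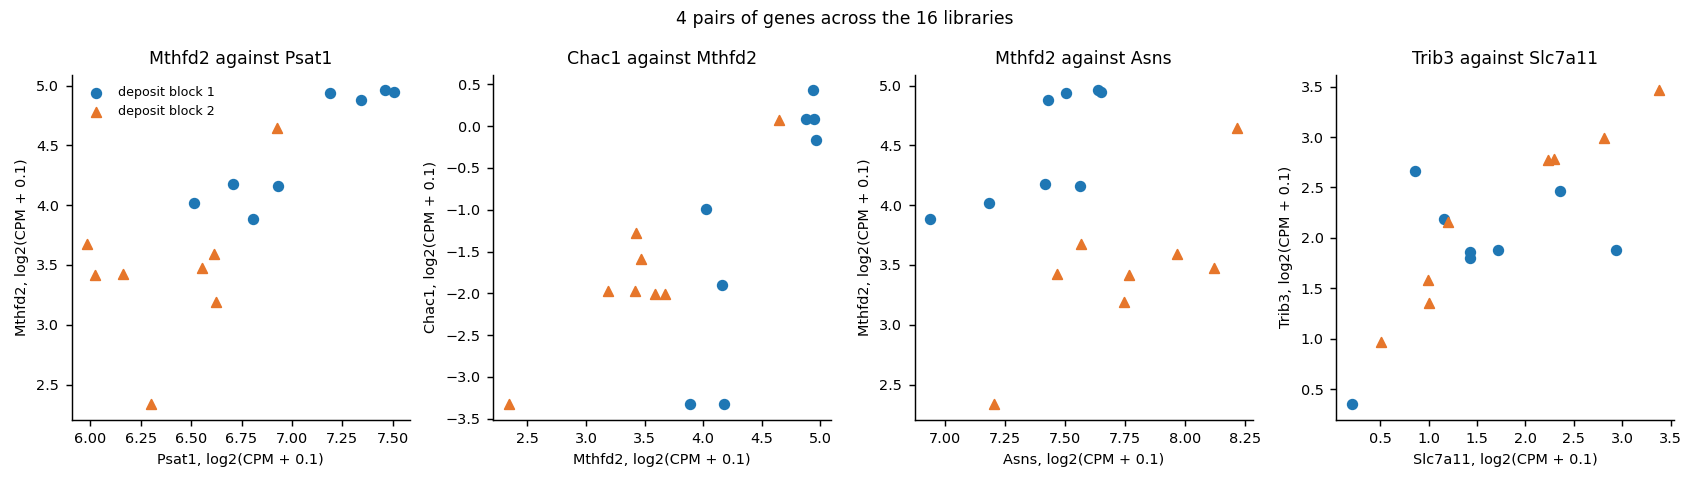
Log2(CPM + 0.1) of 4 pairs of genes, 1 point per library, with circles for deposit block 1 and triangles for block 2. Mthfd2 rises with Psat1 over all libraries (r = 0.82), while with Asns it rises along 2 separate lines, 1 for each block (r = 0.75 and 0.77).

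The 2 copies of each gene were compared within libraries. The comparison took log2(CPM + 0.1) of 129 minus that of cast within each of the 16 libraries, over 13583 autosomal genes, and each copy's CPM is scaled to the reads of that copy alone, which sets aside the 51.1% to 53.4% of reads that fell to 129 in all. In limma 6 of the 10 genes passed, all 6 with the 129 copy lower, where 46.8% of all genes passed in either direction, 24.7% with 129 higher and 22.1% with cast higher. The median log2 difference was -0.31 for the 10 genes and 0.01 for all genes. All libraries come from 1 hybrid line, and some from 1 group. The p-values thus describe how repeatable a difference was between these libraries and not a difference between strains. A bias in mapping reads to the copies was not tested. Psat1 averaged 92.3 ± 37.3 CPM from 129 and 131 ± 39.0 CPM from cast (SD, n = 16), a log2 difference of -0.55 (SE 0.06, adjusted p = 8.24e-07 in limma) with cast higher in 16 of 16 libraries. Asns averaged 174 ± 48.5 CPM from 129 and 220 ± 46.0 CPM from cast (-0.36, SE 0.04, adjusted p = 5.98e-07 in limma), also with cast higher in 16 of 16. The difference was smaller for Mthfd2, at -0.25 (SE 0.05, adjusted p = 0.000823 in limma; cast higher in 14 of 16). Trib3 had -0.62 (SE 0.15, adjusted p = 0.00298 in limma) and cast was higher in 13 of 16 libraries, but the value was -0.29 with an adjusted p of 0.341 in block 1 alone and -0.94 in block 2 alone. Atf4 had -0.48 (SE 0.16, adjusted p = 0.0186 in limma), with cast higher in 12 of 16, and -0.15 with an adjusted p of 0.49 in block 2 alone. The values of Shmt2 (0.03, SE 0.09), Slc7a11 (0.16, SE 0.12), Ddit3 (-0.15, SE 0.20) and Chac1 (0.09, SE 0.28) did not pass, with adjusted p from 0.275 to 0.818 in limma.

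Phgdh had a log2 difference of -0.40 (SE 0.12, adjusted p = 0.0111 in limma) with cast higher in 14 of 16 libraries, and 2 libraries weighed on it. In ac.del 27.1% and in c.del replicate 1 26.1% of its reads came from 129, against 44.1% to 55.8% in the other 14. The whole of chromosome 3 leaned to cast in these libraries. Pooled over the reads of 523 genes, the share of 129 was 36.3% in ac.del, 33.8% in c.del replicate 1 and 53.5% in F121-9 replicate 1. Relative to the mean of the F121-9 libraries, the median log2 difference of these genes was 1.07 from cast and 0.14 from 129 in ac.del. In c.del replicate 1 it was 0.93 from cast and -0.19 from 129. Without the 2 libraries, the difference of Phgdh was -0.23. In limma this difference passed in 7 of 9 alternative fits, the one without these libraries included, but in neither deposit block alone. Slc7a11 lies on the same chromosome, and 46.4% of its 151 reads in ac.del (95% Wilson interval 38.6% to 54.3%) and 48.0% of its 50 reads in c.del replicate 1 (34.8% to 61.5%) came from 129. The genes within 10 Mb had 36.3% and 34.9%, and the median share of Slc7a11 over the 16 libraries was 54.6%. The number of chromosome 3 copies was not tested. For the other 5 genes that passed, the share of 129 in the pooled reads of genes within 10 Mb is given as its median over the 16 libraries. It was 48.5% around Asns, 52.0% around Psat1, 53.9% around Mthfd2, 52.7% around Trib3 and 52.4% around Atf4. The genes themselves had medians of 45.8%, 43.7%, 47.9%, 42.5% and 42.6%.

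**Figure D5:**
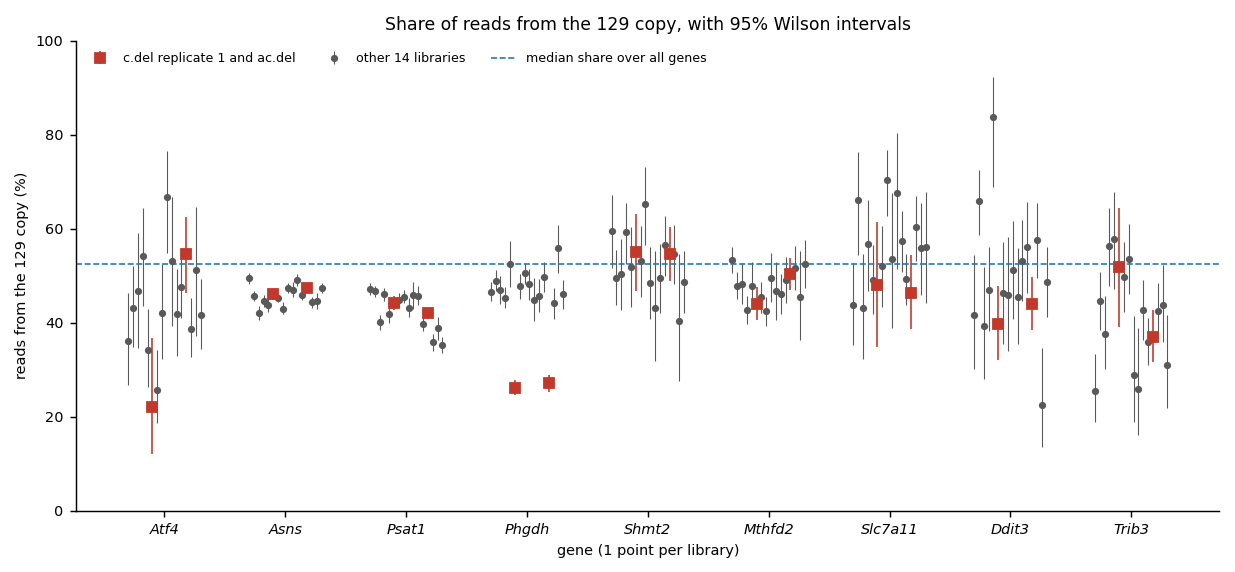
Share of reads from the 129 copy (vertical axis, %) of 9 genes, with 1 point per library and its 95% Wilson interval for counting error; Chac1 is left out because 5 libraries had at least 20 reads. Red squares mark c.del replicate 1 and ac.del, where Phgdh falls to 26.1% and 27.1%. The dashed line is the median over libraries of the 129 share of all reads on genes.

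Of the other pathway genes, 68 autosomal ones were tested for a difference between copies, and 11 were higher from 129 and 21 higher from cast, beside the 24.7% and 22.1% of all genes. Among serine and one-carbon enzymes 3 were higher from 129 and 5 from cast: Got1, the cytosolic aspartate aminotransferase, had a log2 difference of 0.71 (SE 0.05, adjusted p = 4.35e-09 in limma) and Shmt1, the cytosolic counterpart of Shmt2, -0.43 (SE 0.04, adjusted p = 2.77e-07). Among transporters 1 was higher from 129, Slc7a1 (0.29, SE 0.03), and 3 from cast, led by Slc43a1 (-2.80, SE 0.27, adjusted p = 1.82e-07 in limma). Atf5, a relative of Atf4, was higher from cast (-0.73, SE 0.12), while Nupr1, a stress cofactor, was higher from 129 (2.34, SE 0.29, adjusted p = 3.36e-06 in limma). For Nupr1 the mean level was 1.01 CPM, so few reads stand behind it. Among synthetases 3 were higher from 129 and 5 from cast, with a log2 difference of -0.25 for Tars and 0.24 for Rars.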

How the data were processed

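Bru-seq libraries of 16 samples were analysed from 1 deposited table. Bowtie2, bedtools and the mm10 build were used upstream, per the submitters' processing notes (versions not given in the sources used here), and per the file headers a mapping quality of 10 was required and reads were split by SNPs into the 2 copies. The values deposited by the authors are CPM: each of the 32 columns sums to 1000000 over 42497 lines, with no division by length, although the submitters' name for the table says RPKM. Whole reads were recovered for 100% of values within 0.01 and used for edgeR, DESeq2, floors (3 reads per library) and Wilson intervals, which cover counting error only. The design had assumed no unit, and the test it named suits CPM.

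limma 3.58.1 (trended eBayes, two-sided) in R 4.3.3 was run on log2(CPM + 0.1) of genes with a mean of at least 0.2 CPM, with edgeR 4.0.16 and DESeq2 1.42.0 as alternatives. Correlations used 100000 permutations (scipy 1.17.1, numpy 2.4.6, Python 3.11.15). Scripts were tested on simulated data. Other alternatives were pseudocounts of 0.01 and 1, no filter, a minimum mean of 1 CPM, quantile normalization, chromosome-median centring, the deposit block as a covariate, the compared groups only and leaving out each library. Removal of block means, group means, and copies without c.del replicate 1 and ac.del were added after the data were seen. Promoter sequences are from RefSeq, GRCm38.p6. The genes and lists were chosen with earlier results of these data known. All 10 genes are described; of other lists, genes passing a test and those with the highest means, and the 3 genes most correlated with Asns and Atf4, could be named.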

Additional observations from a re-analysis of the deposited data

How the results depend on the processing

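Under the alternatives run, the number of the 10 genes called between groups stayed at 0 in 180 of 180 refits. The counts over all genes moved. For abc.del against F121-9 (31 genes), the count was 18 with edgeR, 13 with a pseudocount of 0.01, 54 with no filter on low values, 15 with a mean CPM of at least 1, 51 with quantile normalization, 671 with the deposit block as a covariate, 599 with only the groups compared and 358 with DESeq2. For ab.del (7 genes) it was 37 with a pseudocount of 1, 11 with edgeR, 52 with no filter, 32 with quantile normalization, 11 with chromosome-median centring, 202 with the block, 21 with only the groups compared and 187 with DESeq2. For c.del (7 genes) it was 31 with a pseudocount of 1, 44 with no filter, 23 with quantile normalization, 207 with the block and 222 with DESeq2. For abc.del against ab.del (0 genes) it was 1 with no filter. The site a count (2 genes) was 0 with a pseudocount of 0.01 or 1, with no filter and with a mean CPM of at least 1, 4 with chromosome-median centring and 6 with the block, and the site b count (0 genes) was 3 with the block. On the 129 copy, edgeR called 18 genes in abc.del and 17 in ab.del, and a pseudocount of 1 gave 22 in c.del. On the cast copy a pseudocount of 1 gave 1 gene in each of abc.del, ab.del and c.del. The cause of these shifts was not tested.

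With 1 library left out at a time, so that a lone sample is assumed to vary like the other groups, the counts of genes called against F121-9 ran from 0 to 156 in abc.del, from 0 to 53 in ab.del and from 0 to 29 in c.del, and were 0 throughout for abc.del against ab.del. On the 129 copy they ran from 0 to 591 in abc.del, 0 to 471 in ab.del, 0 to 364 in c.del and 0 to 1 in abc.del against ab.del. On the cast copy they ran from 0 to 65 in abc.del, 0 to 15 in ab.del and 0 to 602 in c.del. Against F121-9 the highest counts came without a c.del library, and the lowest included those without an F121-9 library.

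The count of 6 of 10 genes that differed between copies was 3 in block 2 alone and 4 in block 1 alone. Each block holds 8 of the 16 libraries, and the share of all genes that passed in these smaller fits is not given here. Whether the drop is particular to these genes is thus not shown. Phgdh had an adjusted p of 0.118 in block 1 and 0.0901 in block 2, and Mthfd2 0.0643 in block 2. The difference of Shmt2 turned to -0.15 in block 2 alone and that of Chac1 to -0.02 with a pseudocount of 1. The 1 pair of genes whose correlation passed from both sides became 2 pairs with quantile normalization, 3 with chromosome-median centring and 0 with deposit block means removed. No paired analysis was possible because only F121-9 carries replicate numbers in its labels, so that no number is shared between groups; the 2 copies were compared within libraries. Genes with few reads, Chac1 above all, are limited by counting error, and groups of 2 libraries left intervals of over 1 log2 unit for every gene.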
